A study of Mus musculus with 4 samples.

Results

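Inhibitory neurons of the Lhx6/Nxph1 type were examined in single-nucleus RNA sequencing of the mouse hippocampus. The 176 nuclei described here were chosen by their own UMI values in 10 genes (a UMI, or unique molecular identifier, marks 1 captured transcript), so the levels of those genes are given as a description, with no test. A nucleus was taken if it had at least 1500 UMIs, at most 5% mitochondrial UMIs, at least 2 UMIs of Gad1 and Gad2 together, and more UMIs of Lhx6, Nxph1, Sst and Pvalb together than of Adarb2. At most 1 of Pdgfra, Vcan and Cspg4, genes of oligodendrocyte precursors, could be detected. The rule found 73 nuclei among 12762 barcodes in wild-type (WT), 17 among 4643 in PS19 replicate 1, 25 among 4924 in PS19 replicate 2 and 61 among 9719 in TG_PS19, or 176 of 32048 in all.

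The libraries came from frozen hippocampus that had been pooled within a genotype, with 1 library of WT, 2 of PS19 and 1 of TG_PS19. PS19 mice (a B6 and C3 background) carry a human MAPT transgene with the P301S mutation, a 1N4R tau expressed from the prion protein (Prnp) promoter. TG_PS19 mice carry the same tau transgene and also overexpress SORLA, a sorting receptor, from the SORLA-Rosa26 allele under a CMV/β-actin promoter. PS19 mice had been crossed into the SORLA line and littermates were studied. The age, the sex and the number of animals per pool are not given in the sources used here, nor is it said whether PS19 replicates 1 and 2 are separate pools. The p-values therefore measure the spread between these libraries only. That spread came from the PS19 pair and was shared over genes, so a gene whose PS19 libraries disagree can still have a small p-value. WT and TG_PS19 had no replicate, which holds for every value of those groups.

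Interneurons that express Lhx6 arise in the medial ganglionic eminence of the embryonic forebrain and migrate into the hippocampus. In the adult they include the parvalbumin (Pvalb) basket and chandelier cells, which inhibit the cell body and the initial segment of the axon, the somatostatin (Sst) cells, which inhibit dendrites, and part of the neurogliaform cells. The transcription factors Lhx6, Sox6, Satb1 and Maf mark this lineage, Adarb2 marks inhibitory neurons of the caudal ganglionic eminence, and Gad1, Gad2 and Slc32a1 encode the enzymes that make GABA and the transporter that loads it into vesicles.

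The members were few and unequal in depth. Their median was 7181 UMIs per nucleus in WT, 13809 and 14018 in the PS19 libraries and 10047 in TG_PS19, and their summed counts were 587862, 257289, 400877 and 651727 UMIs. Levels below are UMIs per 1000000 UMIs of the summed members (CPM), and they cannot tell fewer cells that express a gene from less RNA per cell. Between 5 and 32 barcodes were shared by any pair of libraries, and 0 of them were members. Xist, the noncoding RNA that coats the inactive X chromosome in females, had 423 UMIs in 37 of the 61 TG_PS19 members, while 23 others had UMIs of Y-linked genes and no Xist, so that the TG_PS19 pool held nuclei of both sexes. The other libraries had Xist in 1 nucleus each, with 1 UMI in WT, 15 UMIs in PS19 replicate 1 and 1 UMI in PS19 replicate 2.

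Nxph1, which encodes a secreted ligand of neurexins, led the choice. It was detected in 72 of 73 WT, 17 of 17 and 25 of 25 PS19 and 61 of 61 TG_PS19 nuclei, at 3183, 3024, 2652 and 2748 CPM. In 101 of the 176 members Nxph1 alone placed the 4-gene sum above Adarb2. Lhx6 itself was found in 25 of 73 WT, 8 of 17 and 15 of 25 PS19 and 19 of 61 TG_PS19 nuclei, at 66.3, 70.0, 69.8 and 55.2 CPM. Over all members the Lhx6 level was similar in the 4 libraries, although a smaller share of WT and TG_PS19 nuclei had a UMI of it. Those nuclei were shallower, and their mix of the classes described below also differed. The part of each in this share was not tested.

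The neuropeptide gene Sst was detected in 15, 10, 8 and 12 members, in the same order of libraries, at 112, 276, 112 and 81.3 CPM. These are 20.5%, 58.8%, 32% and 19.7% of the members, against 0.691%, 0.677%, 0.57% and 1.37% of oligodendrocyte nuclei, which should lack it and were shallower (medians of 2352, 2601, 3177 and 2397 UMIs). With each nucleus thinned to 1500 UMIs the member shares were 10.96%, 35.3%, 8% and 8.2%, beside oligodendrocyte shares of 0.395%, 0.508%, 0.414% and 0.831%. Sst UMIs helped to admit the members, and the oligodendrocyte nuclei were chosen without Gad UMIs. These shares are therefore a description and do not test identity. Pvalb was seen in only 4, 4, 3 and 3 members. Slc32a1, which the rule did not use, was detected in 40 of 73 WT, 10 of 17 and 12 of 25 PS19 and 22 of 61 TG_PS19 nuclei, at 114, 77.7, 49.9 and 39.9 CPM, and was called in none of the 3 comparisons below.

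Near its limits the rule admitted 34 members with exactly 2 Gad1 and Gad2 UMIs and left out 46 nuclei with 1. It admitted 6 members whose 4-gene sum exceeded Adarb2 by 1 UMI and left out 46 with a tie, of which 44 had neither. It admitted 27 members with 1 precursor gene detected and left out 63 nuclei with more.

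The Lhx6/Nxph1 label held for a part of these nuclei. Meis2, a homeobox gene of inhibitory neurons outside this lineage, had at least 2 UMIs in 53 members, with a median of 11 UMIs in them, 1 UMI in 8 members and 0 in the other 115. After this had been seen, the members were divided by marker genes. Identity-gene nuclei, with at least 2 UMIs over Lhx6, Sox6, Satb1, Maf, Sst and Pvalb and under 2 of Meis2 and of Prkcd, numbered 109. Meis2/Prkcd nuclei, with at least 2 UMIs of either gene, numbered 58, and 9 members were in neither class. Because the data go against the label for these, the whole set is called Nxph1-led inhibitory nuclei here. The word inhibitory rests on the Gad1 and Gad2 UMIs that the rule required.

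The rule itself required Gad and lineage-gene UMIs, and the division used Lhx6, Sst and Pvalb, so their frequencies in the classes are a description. Nxph1 was detected in 108 of 109 identity-gene nuclei and in 58 of 58 Meis2/Prkcd nuclei, and Gad2 in 95 and 49. Lhx6 was found in 66 of the 109 and in 1 of the 58, Sst in 44 and 1, and Pvalb in 14 and 0. By library, Lhx6 was in 24 of 39 WT, 8 of 15 and 15 of 22 PS19 and 19 of 33 TG_PS19 identity-gene nuclei. Its levels there were 91.7, 76.1, 79.5 and 93.8 CPM. Among genes that neither step used, the receptor tyrosine kinase gene Erbb4 was found in 104 of 109 and 37 of 58, and the Kv3 channel gene Kcnc1, which supports fast firing, in 94 and 20. Erbb4 was also detected in 87.3% to 91.8% of oligodendrocyte nuclei by library, so its presence does not set interneurons apart. In the opposite direction, Etv1 was found in 5 of the 109 and 31 of the 58, Trh, which encodes thyrotropin-releasing hormone, in 1 and 17, and Stac in 4 and 20. Slc32a1 was also used by neither step. It was found in 25 of 39 WT, 8 of 15 and 12 of 22 PS19 and 15 of 33 TG_PS19 identity-gene nuclei. Over all members it was found in 40, 10, 12 and 22 nuclei in the same order, and in 15 of 33 WT Meis2/Prkcd nuclei. Median depth was 11797 UMIs in identity-gene nuclei and 5404 in Meis2/Prkcd nuclei. Absence of a gene from the latter is therefore read against fewer UMIs.

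The mix of the 2 classes differed between libraries. Meis2/Prkcd nuclei were 33 of 73 WT members (45.2%, exact 95% binomial interval 33.5 to 57.3%), 2 of 17 (11.8%, 1.46 to 36.4%) and 2 of 25 (8.0%, 0.984 to 26.0%) PS19 members and 21 of 61 TG_PS19 members (34.4%, 22.7 to 47.7%). Both PS19 shares were below those of WT and TG_PS19. Intervals here and below cover counting error only. Within this class the genes found differed between WT and TG_PS19 at a median depth of 4202 and 8878 UMIs. The protein kinase C gene Prkcd, which is part of the definition of the class, was found in 0 of 33 WT and 12 of 21 TG_PS19 nuclei, and the serotonin receptor gene Htr2c, which is not, in 2 and 13. In the shallower WT nuclei Trh was found in 14 of 33 against 2 of 21 in TG_PS19, Etv1 in 25 against 4, and the synaptic vesicle gene Synpr in 32 against 7. The mix of classes moved with the genotype comparisons that follow, and its part in them was not tested; each count of called genes over all genes is given also for identity-gene nuclei alone, an alternative added after the data had been seen.

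**Figure D1:**
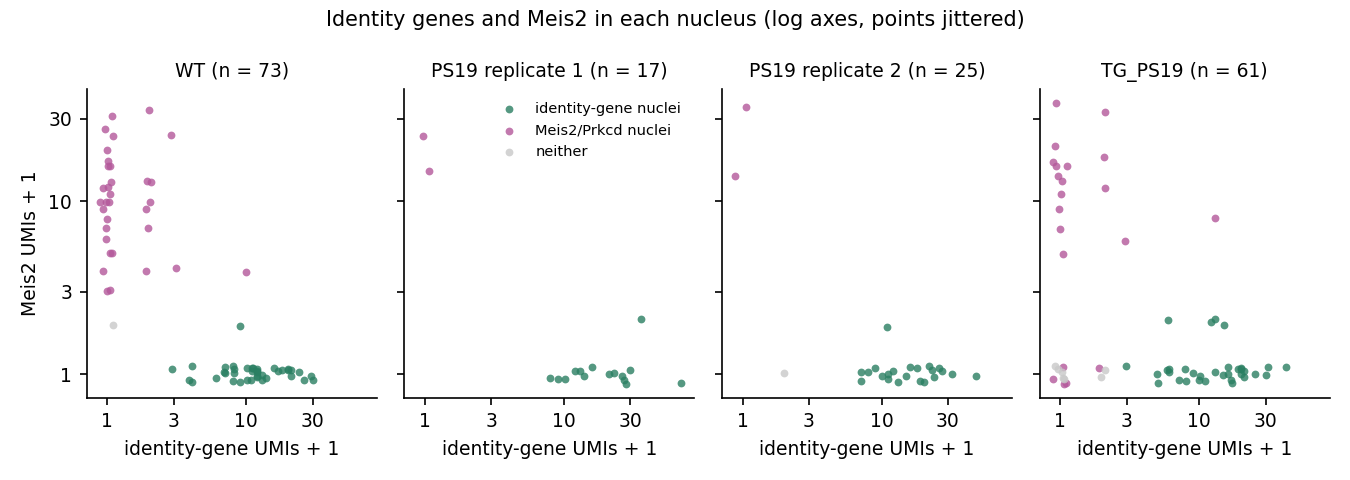
Each point is 1 member nucleus of the library named above its panel, with UMIs of the 6 identity genes plus 1 on the x axis and Meis2 UMIs plus 1 on the y axis (both log scales, points jittered), coloured by class. Of the 53 nuclei with at least 2 Meis2 UMIs, 33 are in WT and 16 in TG_PS19; the definition of the classes sets them above the identity-gene nuclei on the y axis, and 2 of them had 9 and 12 identity-gene UMIs.

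Markers of other cell types were found in the members of every library. For scale, Gad1 was at 276 CPM and Gad2 at 299 CPM in TG_PS19 members. The summed level of 6 astrocyte markers was 362 CPM in WT, 101 and 145 CPM in the PS19 libraries and 460 CPM in TG_PS19, with Aqp4 at 0 in both PS19 libraries and Gfap at 0 in replicate 1. That of 6 oligodendrocyte markers was 452, 463, 142 and 468 CPM, and that of 6 microglial markers 145, 77.7, 87.3 and 126 CPM. The 6 excitatory markers summed to between 13.6 and 31.1 CPM. A nucleus was counted as carrying another class's markers if its Slc17a7, Slc17a6 and Neurod6 UMIs were at or above its Gad1 and Gad2 UMIs. It was also counted with at least 50% of another class's list detected. This applied to 13 WT, 3 and 4 PS19 and 19 TG_PS19 members. Among identity-gene nuclei it applied to 6 of 39 WT, 3 of 15 and 3 of 22 PS19 and 11 of 33 TG_PS19 nuclei.

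The share of Nxph1-led nuclei among all nuclei that passed the depth limits was 0.669% (73 of 10907, exact 95% interval 0.525 to 0.841%) in WT. It was 0.394% (17 of 4313, 0.230 to 0.630%) and 0.523% (25 of 4784, 0.338 to 0.770%) in PS19 and 0.761% (61 of 8014, 0.583 to 0.977%) in TG_PS19. The PS19 shares were the lowest, and their intervals overlapped that of WT, while with 1 library of WT no test of the share was made. Among nuclei with at least 2 Gad1 and Gad2 UMIs the members made up 29.4%, 19.3%, 19.1% and 32.3%, so both PS19 libraries were again below the lone libraries. For identity-gene nuclei alone the shares of all kept nuclei were 0.358% in WT, 0.348% and 0.460% in PS19 and 0.412% in TG_PS19, and the WT and TG_PS19 values lay between those of the PS19 pair. Adarb2-led inhibitory nuclei, chosen by the same limits with more Adarb2 than the 4-gene sum, made up 1.14%, 1.21%, 1.65% and 1.05%.

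**Figure D2:**
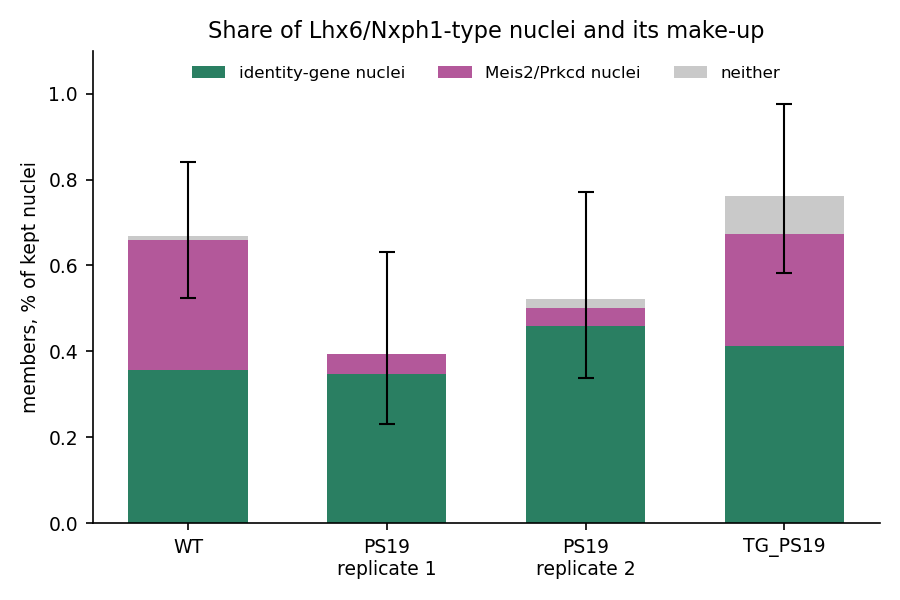
Bars give Nxph1-led members as a percent of kept nuclei in each library, divided into identity-gene nuclei, Meis2/Prkcd nuclei and neither. The whole bar is 0.669% in WT, 0.394% and 0.523% in PS19 and 0.761% in TG_PS19, while the identity-gene part is between 0.348% and 0.460% in all 4.

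Subtypes were read within the identity-gene nuclei by which of 4 short marker lists had the most UMIs, with at least 2 required. Sst and Pvalb were also part of the choice of members, so these shares are a description. The Sst list (Sst, Elfn1, Chodl, Crhbp) led in 13 of 39 WT nuclei (33.3%, 19.1 to 50.2%), 9 of 15 (60%, 32.3 to 83.7%) and 9 of 22 (40.9%, 20.7 to 63.6%) PS19 nuclei and 8 of 33 TG_PS19 nuclei (24.2%, 11.1 to 42.3%). The Pvalb list (Pvalb, Btbd11, Syt2, Mybpc1) led in 16, 3, 6 and 13 nuclei, or 41.03%, 20%, 27.3% and 39.4%. The intervals overlapped in every pair of libraries. Over all members the Pvalb list led in 26.03%, 17.6%, 32% and 29.5%, where the PS19 pair lay on both sides of WT and TG_PS19. With all members thinned to 1500 UMIs the Sst list led in 6.85% of WT, 23.5% and 4% of PS19 and 3.28% of TG_PS19 members, so that PS19 replicate 2 then lay below WT.

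The list of the neurogliaform subtype (Lamp5, Sv2c, Id2, Ndnf) led in 4 of 39 WT, 1 of 15 and 4 of 22 PS19 and 10 of 33 TG_PS19 identity-gene nuclei, or 10.3%, 6.67%, 18.2% and 30.3%. Lamp5, which encodes a membrane protein of vesicles, was at 15.3 CPM in WT, 15.5 and 44.9 CPM in the PS19 pair and 53.7 CPM in TG_PS19 over all members. Its log2 fold change of TG_PS19 against WT was 1.85 (adjusted p 0.11, edgeR's quasi-likelihood test). In identity-gene nuclei Sv2c was at 9.65 CPM in WT (4 UMIs), 33.8 and 62.5 CPM in the PS19 pair and 65.1 CPM in TG_PS19. Sv2c was called there for TG_PS19 against WT (log2 2.77, adjusted p 0.040 by the same test), but not over all members. The chandelier list (Unc5b, Vipr2, Pthlh) led in 3 WT nuclei, 1 nucleus of each PS19 library and 0 in TG_PS19, and 0 of 33 in TG_PS19 has an upper limit of 10.6%.

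**Figure D3:**
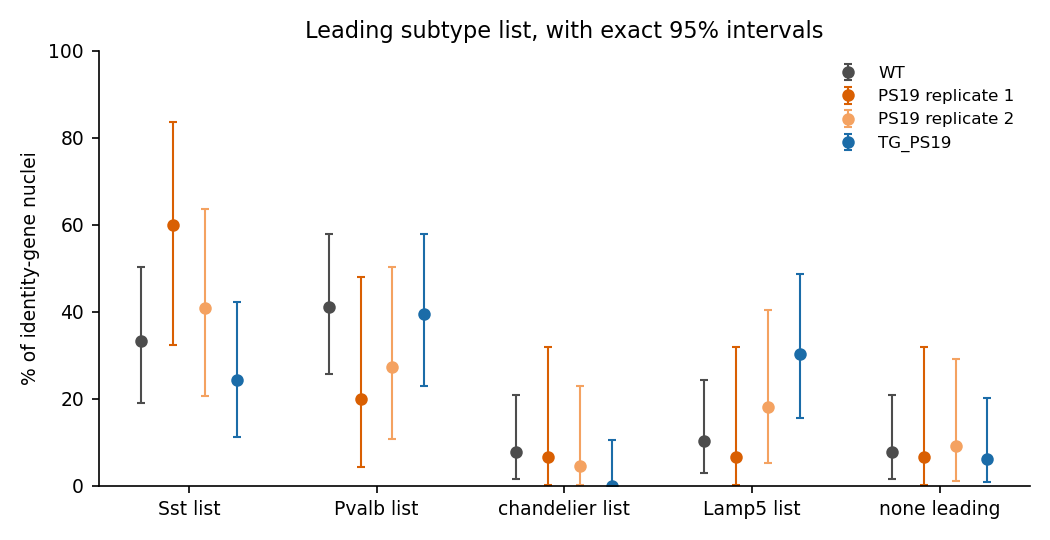
Points give the percent of identity-gene nuclei in which each subtype list led, by library, with exact 95% binomial intervals as bars. The Sst list is at 33.3% in WT, 60% and 40.9% in PS19 and 24.2% in TG_PS19, and the intervals of the libraries overlap within every list.

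The human transgenes were read first in each comparison, since they check the labels. Human MAPT had 0 UMIs in WT members, which allows up to 5.10 CPM at 3 counts, 2 and 5 UMIs in PS19 and 4 UMIs in TG_PS19. Human SORL1 had 0 UMIs in the WT and PS19 members and 18 UMIs in 15 of 61 TG_PS19 members (27.6 CPM), at least 6.06-fold higher than in PS19 (3 counts over the PS19 arm as the floor). SORL1 was not called (adjusted p 0.48 against PS19 by edgeR). The mouse genes Mapt (350, 377, 389 and 321 CPM in WT, PS19 replicates 1 and 2 and TG_PS19) and Sorl1 (68.0, 62.2, 49.9 and 49.1 CPM) were not called either, and reads of the human and mouse copies may have been split by similarity.

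PS19 was compared with WT to describe what differed with the tau transgene alone. Of 8920 genes tested in the summed members, edgeR called 52 (0.583%) at an adjusted p under 0.05, 22 higher and 30 lower in PS19. DESeq2 called 0 genes in this and in each of the later 2 comparisons (42, 41 and 45 at an unadjusted p under 0.05), so every call below holds for edgeR alone. The higher genes included the long noncoding RNA gene Gm43049, the transcriptional cofactor gene Eya1, the calcium-buffer gene Calb1 and the growth factor gene Igf1. The lower genes included Meis2, Trh, Calb2, Cdh6, Smoc1, Stac, Sorcs3 and Slc1a3. When counts were scaled by library totals instead of trimmed means (TMM), 20 genes were called, and the share that was higher went from 42.3% to 15%.

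Most of the 30 lower genes were genes of the Meis2/Prkcd nuclei. A median of 85.3% of their WT UMIs lay in those nuclei, which held 28.9% of all WT member UMIs, and 25 of the 30 had more of their UMIs there than in the rest. In identity-gene nuclei alone, 20 of the 30 were tested, 12 had the same direction and 2 were called. Of the 22 higher genes, 21 were tested there, 20 had the same direction and 3 were called. Identity-gene nuclei are a part of the same members, with 414411 of 587862 UMIs in WT. In PS19 they held 236580 of 257289 and 352095 of 400877 UMIs. Shared counts thus favour the same direction, here and in the later comparisons, and these counts of genes are a description. Identity-gene nuclei gave 10 calls among 7502 genes (0.133%), 7 higher and 3 lower. Of these, 5 were also called over all members: Gm43049, Eya1, Tll1, Ghr and Inpp4b, named after their values were seen. The oligodendrocyte gene Mbp was 1 of the 7 higher (log2 3.55) and was not called over all members. It had 2 UMIs in WT and 24 and 10 UMIs in the PS19 pair.

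Gm43049 (ENSMUSG00000105777.1, chr3:140692038-140760704 on the minus strand, GRCm38) had 0 UMIs in WT, 8 and 23 UMIs in the PS19 libraries and 61 UMIs in TG_PS19, or 0, 31.1, 57.4 and 93.6 CPM. WT was below every other library. The PS19 level was at least 9.23-fold higher than WT and the TG_PS19 level at least 18.3-fold higher (adjusted p 2.2e-06 and 7.9e-11), and in identity-gene nuclei the bounds were 7.27-fold and 17.6-fold. It was detected in 5 and 12 PS19 nuclei and in 29 TG_PS19 nuclei. Adarb2-led nuclei had the same pattern, with 0, 40.4, 63.9 and 97.6 CPM, and the PS19 change was called there as well (adjusted p 8.5e-05), so that the transcript was not limited to Nxph1-led nuclei.

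Eya1, which encodes a phosphatase that also acts as a transcriptional cofactor, was at 10.2 CPM in WT, 101 and 49.9 CPM in the PS19 pair and 38.4 CPM in TG_PS19. It rose by 2.81 in PS19 (log2, SE 0.58, adjusted p 0.00059, higher in 2 of 2 PS19 libraries). In replicate 1, 14 of its 26 UMIs came from 1 nucleus. Identity-gene nuclei gave a log2 fold change of 2.45 (adjusted p 0.024), and Adarb2-led nuclei, where Eya1 was at 35.4, 15.4, 30.4 and 19.3 CPM, gave −0.48 (adjusted p 1.0).

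Calb1, which encodes the calcium-binding protein calbindin, was at 13.6 CPM in WT, 73.8 and 67.4 CPM in the PS19 pair and 38.4 CPM in TG_PS19. The PS19 pair lay close together and above both lone libraries. Calb1 rose by 2.37 in PS19 (log2, SE 0.55, adjusted p 0.0056). Identity-gene nuclei gave a log2 fold change of 2.19 that was not called (adjusted p 0.073). Igf1, which encodes insulin-like growth factor 1, was at 15.3, 46.6, 89.8 and 29.2 CPM and rose by 2.22 in PS19 (log2, SE 0.54, adjusted p 0.0099). In identity-gene nuclei Igf1 gave 1.83 and was not called (adjusted p 0.15). The gene Ghr, encoding the growth hormone receptor, was called higher in PS19 in both sets, at 62.9 CPM in WT, 358 and 117 CPM in the PS19 pair and 186 CPM in TG_PS19, with 50 of the 92 UMIs of replicate 1 in 1 nucleus.

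Meis2 fell by 2.22 in PS19 (log2, SE 0.32, adjusted p 1.8e-08), from 628 CPM in WT to 148 and 120 CPM, with 354 CPM in TG_PS19. In identity-gene nuclei, where its level was limited by the choice, it was between 2.41 and 10.4 CPM. Other genes found mostly outside the identity-gene nuclei were also lower in PS19. Trh was at 79.95 CPM in WT, 3.89 and 0 CPM in the PS19 pair and 7.67 CPM in TG_PS19, and WT was 52.6-fold above PS19 with an exact counting interval of 8.99 to 2122 (adjusted p 3.2e-07). Calb2, encoding calretinin, was at 49.3, 3.89, 0 and 7.67 CPM, with a ratio of 32.5 (5.38 to 1326, adjusted p 0.011), and had 0 UMIs in identity-gene nuclei of every library.

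The cadherin gene Cdh6 was at 146 CPM in WT, 15.5 and 17.5 CPM in the PS19 pair and 55.2 CPM in TG_PS19, and fell by 3.09 in PS19 (log2, SE 0.46, adjusted p 3.3e-08). Smoc1, which encodes a matrix calcium-binding protein, was at 68.0, 3.89, 2.49 and 16.9 CPM, 22.4-fold higher in WT than in PS19 (5.81 to 191, adjusted p 2.7e-05). Stac, encoding a channel adaptor protein, was at 74.8, 11.7, 2.49 and 106 CPM, and fell by 3.53 in PS19 (log2, SE 0.61, adjusted p 6.4e-06). All 3 were low in identity-gene nuclei of every library, at 0 to 23.4 CPM. A930009A15Rik, a gene without an assigned function here, was at 86.8, 15.5, 12.5 and 10.7 CPM and fell by 2.61 (log2, adjusted p 0.00043), while in identity-gene nuclei it was at 2.41, 16.9, 14.2 and 13.03 CPM.

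Sorcs3, a sorting receptor of the same VPS10 domain family as SORLA, was at 167 CPM in WT, 31.1 and 29.9 CPM in the PS19 pair and 150 CPM in TG_PS19. It fell by 2.42 in PS19 (log2, SE 0.39, adjusted p 5.2e-07). Identity-gene nuclei had 55.5, 29.6, 34.1 and 102 CPM, and the PS19 difference of −0.78 was not called there. In Adarb2-led nuclei Sorcs3 was between 355 and 499 CPM in the 4 libraries, and the log2 fold change of PS19 against WT was 0.23 (adjusted p 1.0). Sorcs3 was the only member of the 13 sortilin and retromer genes tested that was called in PS19 over all members. In identity-gene nuclei the 1 called there was Sorcs1, another gene of this family, which rose by 1.72 (log2, SE 0.41, adjusted p 0.024).

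Slc1a3, a glutamate transporter gene best known from astrocytes, was at 145 CPM in WT, 19.4 and 4.99 CPM in the PS19 pair and 87.5 CPM in TG_PS19. It fell by 3.69 in PS19 (log2, SE 0.49, adjusted p 5.5e-10). The summed astrocyte markers moved in the same way, as given above, and their part in this result was not tested. In identity-gene nuclei Slc1a3 was at 29.0, 21.1, 5.68 and 88.6 CPM, and the PS19 difference of −1.24 was not called. Unc13c, which encodes a protein that primes vesicles for release, fell by 1.996 in PS19 (log2, SE 0.55, adjusted p 0.048), at 56.1, 11.7, 15.0 and 72.1 CPM. Identity-gene nuclei turned the direction, with 7.24 CPM in WT and 12.7 and 17.04 CPM in PS19, and Unc13c was not called there.

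Prkcd had 0 UMIs in WT and 19.4 and 29.9 CPM in PS19, at least 5.06-fold higher (adjusted p 0.006), but those UMIs came from 2 nuclei in each PS19 library. Xist was called higher in PS19 (ratio 14.3, exact interval 2.22 to 599, adjusted p 0.027) with 15 of its 16 PS19 UMIs in 1 nucleus of replicate 1. Trpm3, a channel gene named after its values were seen, was at 344, 350, 307 and 836 CPM over all members. In identity-gene nuclei it was at 60.3, 368, 332 and 237 CPM, with WT the lowest library. It was called higher in PS19 there (log2 2.53). All 16 genes named by rule for PS19 against WT lost their call with DESeq2 and with adjusted residual degrees of freedom in edgeR. Of the 16, 14 kept it in nuclei with at least 3000 UMIs and 11 without the nuclei that carried another class's markers.

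TG_PS19 was compared with PS19 to ask what raised SORLA adds to the tau transgene. Of 8920 genes, edgeR called 80 (0.897%), 70 higher and 10 lower in TG_PS19. The higher genes included sex-linked RNAs (Xist, Tsix), transporters and receptors known from astrocytes (Slc1a2, Slc1a3, Mertk), genes found mostly outside the identity-gene nuclei (Cpa6, Stac, D030068K23Rik, Meis2) and a few neuronal genes (Sorcs3, Unc13c, Nrg1). Stk32a led the lower genes. Identity-gene nuclei alone gave 35 calls of 7502 genes (0.467%), 26 higher and 9 lower, of which 25 were also called over all members. The 26 included Slc1a2, Slc1a3 and Mertk. Another class's markers were carried by 11 of the 33 TG_PS19 identity-gene nuclei, and their part in these calls was not tested. Of the 70 higher genes 52 were tested there, 47 had the same direction and 21 were called, and all 10 lower genes had the same direction and 4 were called.

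Xist rose from 58.3 and 2.49 CPM in PS19 to 649 CPM in TG_PS19 (log2 fold change 4.69, SE 0.38, adjusted p 1.1e-30), and its antisense partner Tsix from 3.89 and 0 CPM to 85.9 CPM. The Y-linked translation factor gene Eif2s3y was at 168 CPM in WT, 175 and 130 CPM in the PS19 pair and 47.6 CPM in TG_PS19, and fell by 1.61 (log2, SE 0.38, adjusted p 0.0052). The counting is not known to use strand, so Xist and Tsix UMIs may be shared. Genotype and sex cannot be told apart over all members. The 23 TG_PS19 members with Y-linked UMIs and no Xist gave 31 calls against PS19, of which 15 were among the 80. Xist and the Y-linked genes, which chose these nuclei, were not left out of that test.

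Slc1a2, encoding the main astrocyte glutamate transporter, was at 117 CPM in WT, 42.8 and 52.4 CPM in the PS19 pair and 246 CPM in TG_PS19. TG_PS19 was the highest library, and Slc1a2 rose by 2.38 (log2, SE 0.35, adjusted p 1.5e-08). Slc1a3 rose by 3.03 (SE 0.52, adjusted p 4e-06), and the phagocytic receptor gene Mertk was 18.2-fold higher (36 against 2 UMIs, exact interval 4.68 to 156, adjusted p 0.00015). In identity-gene nuclei Slc1a2 gave 2.81 and Slc1a3 2.89, and both were called. Without the nuclei that carried another class's markers, Slc1a2 gave 1.44 (adjusted p 0.178) and Slc1a3 0.33, and neither was called. In the Y-linked nuclei alone they gave 0.23 and −1.24. The summed astrocyte markers were 460 CPM in TG_PS19 against 101 and 145 CPM in PS19.

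Stk32a, a serine/threonine kinase gene, was at 34.0 CPM in WT, 163 and 62.4 CPM in the PS19 pair and 6.14 CPM in TG_PS19. It fell by 4.03 in TG_PS19 (log2, SE 0.60, adjusted p 1.5e-08), and by 3.42 in identity-gene nuclei, where it stayed called. It was found in 5 and 4 PS19 nuclei, with 22 of 42 and 17 of 25 UMIs in 1 nucleus of each library, and in 2 TG_PS19 nuclei. Adarb2-led nuclei, at 32.7 and 73.4 CPM in the PS19 pair and 41.0 CPM in TG_PS19, gave −0.39 (adjusted p 0.83). The difference thus rested on few nuclei.

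Sorcs3 rose by 2.33 in TG_PS19 over PS19 (log2, SE 0.39, adjusted p 1.7e-06), to a level near that of WT, and by 1.70 in identity-gene nuclei (adjusted p 0.05, at the threshold). It was detected in 25 of 61 TG_PS19 nuclei and in 4 nuclei of each PS19 library. Unc13c rose by 2.42 (SE 0.52, adjusted p 0.0011), with 28 of its 47 TG_PS19 UMIs in 1 nucleus. Nrg1, which encodes neuregulin 1, the ligand of Erbb4, was at 316 CPM in WT, 132 and 342 CPM in the PS19 pair and 697 CPM in TG_PS19. Nrg1 rose by 1.55 (log2, SE 0.31, adjusted p 0.00019), while identity-gene nuclei, at 292, 144, 179 and 276 CPM, gave 0.82 and no call. In the Y-linked nuclei Nrg1 gave −0.13.

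Cpa6, D030068K23Rik, Stac, Meis2 and Foxp2 had most of their TG_PS19 UMIs outside the identity-gene nuclei. For Meis2 the definition of those nuclei set this. Cpa6, a carboxypeptidase gene, was at 27.2 CPM in WT, 7.77 and 7.48 CPM in the PS19 pair and 153 CPM in TG_PS19, and rose by 4.33 (log2, SE 0.52, adjusted p 8.4e-13). It had 100 UMIs in 13 TG_PS19 nuclei, 30 of them in 1 nucleus, and identity-gene nuclei were at 2.41 to 5.68 CPM in every library. D030068K23Rik was at 28.9, 19.4, 29.9 and 204 CPM and rose by 3.02 (adjusted p 7e-11). Stac rose by 4.09 (adjusted p 1.9e-09) and Meis2 by 1.46 (adjusted p 0.0024). Foxp2, a transcription factor gene of striatal and other neurons, rose by 2.55 (adjusted p 0.0018), with all 47 TG_PS19 UMIs in 3 nuclei and 25 of them in 1. In identity-gene nuclei Foxp2 was at 12.1, 25.4, 5.68 and 2.61 CPM, so that TG_PS19 was lowest there, at 1 UMI. In Adarb2-led nuclei Foxp2 was at 107, 34.6, 14.7 and 7.23 CPM, lowest in TG_PS19. Lama2, a laminin gene, rose by 2.97 (adjusted p 0.0015) at 20.4, 7.77, 7.48 and 59.8 CPM, and 25 of its TG_PS19 UMIs lay in identity-gene nuclei. Lama2 was called there too, at 65.1 CPM in TG_PS19 against 8.45 and 8.52 CPM in the PS19 pair (log2 2.94, adjusted p 0.048). Myo10, an unconventional myosin gene, was at 30.6, 3.89, 9.98 and 61.4 CPM and rose by 3.02 (adjusted p 0.00049).

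**Figure D4:**
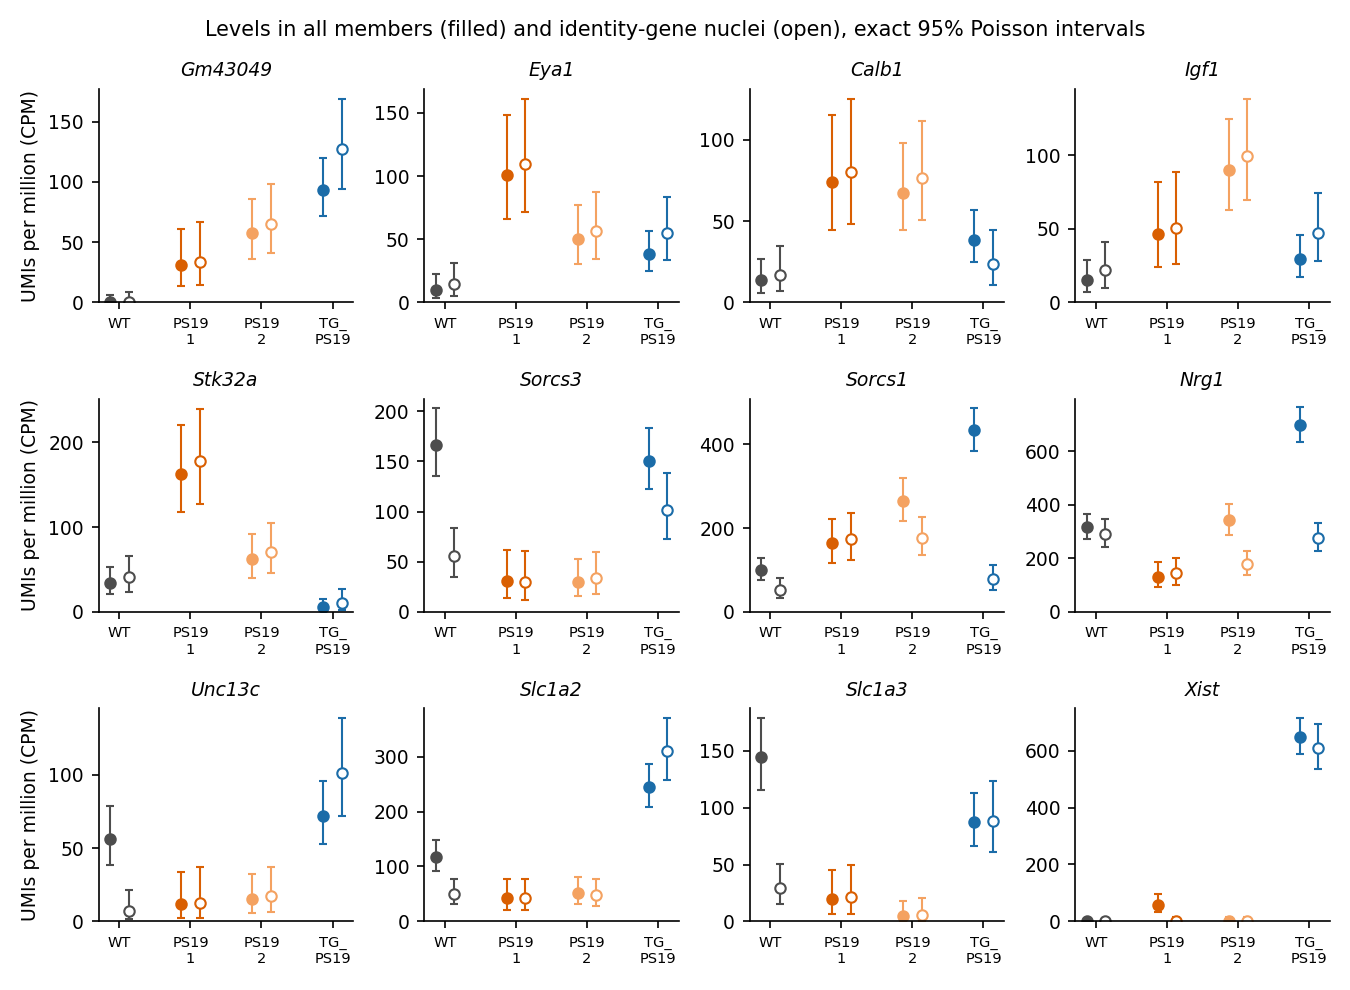
Levels of 12 genes in CPM (y axis, from 0) by library, with filled points for all Nxph1-led members, open points for identity-gene nuclei and exact 95% Poisson intervals as bars. Gm43049 is 0 in WT and 31.1 to 93.6 CPM elsewhere, Sorcs3 is 167 CPM over all WT members and 55.5 CPM in WT identity-gene nuclei, and Xist is 649 CPM in TG_PS19.

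TG_PS19 was also set against WT, a comparison of 2 lone libraries whose spread was taken from the PS19 pair. Of 8920 genes, edgeR called 98 (1.1%), 81 higher and 17 lower in TG_PS19. Identity-gene nuclei gave 23 calls of 7502 genes (0.307%), 21 higher and 2 lower, and 12 of them were among the 98. Of the 81 higher genes 63 were tested there, 56 kept their direction and 11 were called. The oligodendrocyte genes Mbp and St18 and the astrocyte gene Slc1a2 were among the 21 higher calls of identity-gene nuclei. None of these was called over all members in this comparison. The 3 comparisons share libraries and are not independent of each other.

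Htr2c was at 37.4 CPM in WT, 171 and 147 CPM in the PS19 pair and 391 CPM in TG_PS19, and rose by 3.44 in TG_PS19 over WT (log2, SE 0.43, adjusted p 6.9e-12). Identity-gene nuclei were at 16.9, 59.2, 73.8 and 54.7 CPM, where the difference of 1.73 was not called. Sorcs1 was at 100, 163, 264 and 433 CPM and rose by 2.17 (log2, SE 0.39, adjusted p 1.7e-05). In identity-gene nuclei Sorcs1 was at 53.1 CPM in WT, 173 and 176 CPM in the PS19 pair and 78.2 CPM in TG_PS19, so that PS19 was highest there and the difference of TG_PS19 from WT was 0.61. The channel gene Kcnn3 rose by 4.13 (6.80, 27.2, 19.96 and 118 CPM, adjusted p 3.9e-08) and the transcription factor gene Prdm16 by 4.09 (6.80, 11.7, 34.9 and 115 CPM, adjusted p 4.7e-08). Prdm16 was found in 15 of 21 TG_PS19 and 1 of 33 WT Meis2/Prkcd nuclei.

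Prkcd was at least 10.8-fold higher in TG_PS19 than in WT (36 against 0 UMIs, adjusted p 5.4e-06 by edgeR). It had 0 UMIs in the identity-gene nuclei of both libraries, whose definition allowed under 2 Prkcd UMIs per nucleus. Tshz2, a zinc finger gene, rose by 3.55 (adjusted p 3.8e-06), with 37 of 64 UMIs in 1 nucleus. The exchanger gene Slc24a4 (34 against 2 UMIs, ratio 15.3, 3.93 to 132, adjusted p 0.0022) and the vesicle transporter gene Tmem163 (33 against 2 UMIs, ratio 14.9, 3.81 to 128, adjusted p 0.0047) were also higher. Uty and Eif2s3y, both Y-linked, fell by 1.37 and 1.76 on the log2 scale (adjusted p 0.047 and 0.003).

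Gene lists for the function of these neurons are described next. At the shares of all genes called, lists this short would hold few calls, so 0 calls is not read as stability. The lists had been chosen with earlier results of these data known, so they are described by counts and medians only, beside a median log2 fold change over all genes tested of 0.01 for PS19 against WT, −0.00 for TG_PS19 against PS19 and −0.00 for TG_PS19 against WT. The shares of all genes called, against which the counts are read, are 0.583%, 0.897% and 1.1% over all members and 0.133%, 0.467% and 0.307% in identity-gene nuclei. For GABA synthesis and transport, 6 of 9 genes were tested, 2 were higher and 4 lower in PS19, and 0 were called in any of the 3 comparisons. Abat, the enzyme that breaks down GABA, was at 194, 175, 107 and 133 CPM. Of the lineage's transcription factors 10 of 14 were tested and 0 called, with Sox6 at 248, 295, 284 and 258 CPM and Maf at 202, 416, 332 and 204 CPM.

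Channels of fast-spiking neurons held 14 tested genes of 16, with 8 higher and 6 lower in PS19 (median 0.07) and 4 higher and 10 lower in TG_PS19 against PS19 (median −0.21), and 0 called. Identity-gene nuclei gave 4 higher and 10 lower in PS19 (median −0.11) and 5 higher and 9 lower in TG_PS19 against PS19 (median −0.07), so the median for PS19 changed sign. Kcnc2, a Kv3 channel gene, was at 2953, 2620, 2253 and 2168 CPM. All 12 GABA-A receptor genes were tested, 6 higher and 6 lower in PS19 and 9 higher and 3 lower in TG_PS19 against PS19, with 0 called. Of 11 tested in identity-gene nuclei, 7 were higher in PS19 and 5 in TG_PS19 against PS19. All 22 glutamate receptor genes were tested, of which 18 were higher in PS19 (median 0.30) and 13 in TG_PS19 against PS19 (median 0.09), and 0 were called. In identity-gene nuclei 15 of 21 were higher in PS19 (median 0.15) but only 7 in TG_PS19 against PS19, with a median of −0.20, and 1 of the 21 was called, in TG_PS19 against WT. Gria4, an AMPA receptor subunit gene typical of interneurons, was at 2077, 2118, 2490 and 1536 CPM.

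Oxidative phosphorylation genes (20 of 20 tested) were lower for 13 of the 20 in PS19 and for 15 of the 20 in TG_PS19 against PS19, with medians of −0.14 and −0.25 and 0 called. The 7 tested genes of the unfolded protein response, the 11 tested chaperone genes and the 4 tested activity-regulated genes also had 0 calls in each comparison. The endoplasmic reticulum chaperone gene Hspa5 was at 76.5, 62.2, 47.4 and 49.1 CPM. Of 21 vesicle release genes tested, Unc13c was the 1 called, and of 19 synaptic adhesion genes Nrg1 was the 1 called, in TG_PS19 against PS19. Of 8 tested genes of neuropeptides and related markers, Calb1 and Calb2 were called, and of 10 neurotrophin and growth factor genes Igf1 was, all for PS19 against WT. Perineuronal net genes had 0 of 6 called over all members, with Hapln1, a link protein of the matrix, at 51.0, 27.2, 89.8 and 112 CPM. In identity-gene nuclei all 6 were higher in TG_PS19 than in PS19, and Hapln1 was called (67.6, 29.6, 102 and 190 CPM, log2 1.48, SE 0.36, adjusted p 0.017).

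Whether the changes differed from those of the other inhibitory class was tested as an interaction over 8 sums, 2 classes in 4 libraries. Of 10746 genes, edgeR called 0 (0%) for PS19 against WT and 0 (0%) for TG_PS19 against PS19, with 407 and 423 at an unadjusted p under 0.05. No gene is therefore called particular to Nxph1-led nuclei here. With relative log expression scaling, the prior degrees of freedom of the spread went from 12.1 to infinite and 32 and 22 genes were called, so these counts depend on the scaling. Changes that were called in both classes separately were those of Gm43049, Meis2 (log2 fold change −1.73 in Adarb2-led nuclei, adjusted p 0.0018), Slc1a3 (−1.45, adjusted p 0.012) and Unc13c (−1.93, adjusted p 0.027) for PS19 against WT, among the genes named by rule.

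**Figure D5:**
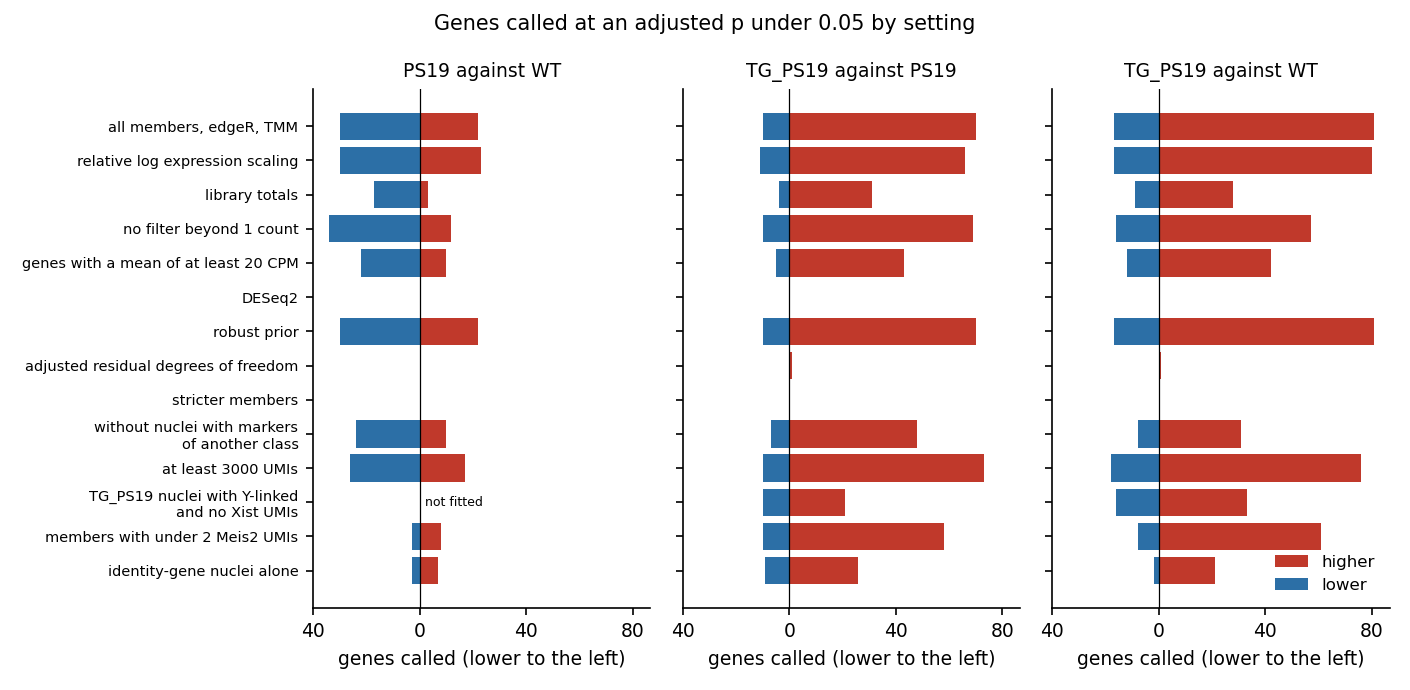
Bars give the number of genes called higher (to the right) and lower (to the left) at an adjusted p under 0.05 in the 3 comparisons, by setting. The counts go from 52, 80 and 98 over all members to 10, 35 and 23 in identity-gene nuclei, and to 0 in each comparison with DESeq2 or with stricter members.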

How the data were processed

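The deposited values were raw UMI counts per gene and barcode, made by the authors; Cell Ranger 7.1.0 and mouse build GRCm38 are named in the submitters' processing notes. The tables held 55403 features, 2 of them human, and gene positions come from GENCODE M21, which matched 54349. No doublet caller was run; nuclei carrying markers of another class were left out in an alternative. Members and gene lists were chosen with earlier results of these data known; genes not reported here were left out of the Sst list and of the identity genes after the data had been seen. Counts were summed per library over the members and tested with edgeR 4.0.16 (R 4.3.3; TMM, low-count filter, quasi-likelihood test, two-sided, Benjamini-Hochberg over all genes). All 4 libraries entered the fit, where only the PS19 replicates give a residual degree of freedom. The chi-square per degree of freedom of the PS19 replicates was 2.68 over 5587 genes. The prior degrees of freedom were infinite in the main fit, so each gene was tested against a spread shared over genes and not its own. The 10 genes of the rule were not tested. Named genes are the called list members, then the 10 called genes with the largest fold changes at a mean of at least 20 CPM whose PS19 libraries lay on the same side; others are said to be chosen later. Alternatives included DESeq2 1.42.0. Shares have exact (Clopper-Pearson) intervals, levels exact Poisson intervals.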

Additional observations from a re-analysis of the deposited data

How the results depend on the processing

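Counts of called genes are given in the order PS19 against WT, TG_PS19 against PS19 and TG_PS19 against WT, where the counts reported are 52, 80 and 98. They were 20, 35 and 37 with library totals, 32, 48 and 54 with a mean of at least 20 CPM, 0, 0 and 0 with DESeq2 1.42.0 (42, 41 and 45 at an unadjusted p under 0.05), 0, 1 and 1 with adjusted residual degrees of freedom (433, 517 and 518 at an unadjusted p under 0.05), and 0, 0 and 0 with stricter members (at least 4 Gad and 3 lineage UMIs; 302, 290 and 320 at an unadjusted p under 0.05). They were 34, 55 and 39 without nuclei that carried another class's markers, 11, 68 and 69 in members with under 2 Meis2 UMIs, and 10, 35 and 23 in identity-gene nuclei. With TG_PS19 nuclei of Y-linked UMIs and no Xist, the last 2 were 31 and 49. The 0 interaction calls became 32 and 22 with relative log expression scaling, 3 and 0 without the library term, 9 and 29 in members with under 2 Meis2 UMIs and 10 and 16 in identity-gene nuclei. The prior degrees of freedom were infinite in most fits and 2.83 with stricter members. The causes of these moves were not tested.

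The share of members, PS19 minus WT, was −0.211 percentage points, −10.2 of Gad nuclei, −0.484 at 3000 UMIs or more and −0.0368 with stricter members. It turned to 0.0475 with under 2 Meis2 UMIs and to 0.0463 in identity-gene nuclei. TG_PS19 minus PS19 was 0.303, against 13.1 of Gad nuclei, 0.641 at 3000 UMIs, 0.0389 thinned, 0.0793 with stricter members, 0.142 without nuclei of other markers, 0.147 with under 2 Meis2 UMIs and 0.00795 in identity-gene nuclei. Leaving out either PS19 library kept both directions (−0.275 to −0.147 and 0.239 to 0.367). The Sst-list difference over all members was 26.7 points for PS19 minus WT (18.2 to 35.1 without either replicate, 6.92 thinned) and −29.7 for TG_PS19 minus PS19 (−38.2 to −21.2, and −10.5 thinned). The Pvalb-list difference of −1.20 points was −14.4 with stricter members and −17.4 in identity-gene nuclei, and turned to 5.77 thinned and 4.28 with at least 3 UMIs of the list, with −8.38 to 5.97 over the replicates left out. That of TG_PS19 minus PS19, 4.68, was 15.8 in identity-gene nuclei and turned to −6.60 thinned, with −2.49 to 11.9 over the replicates.

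Single genes that turned were Xist (−0.44 with under 2 Meis2 UMIs, −0.43 in identity-gene nuclei) and Unc13c (1.04 in both) for PS19 against WT. With Y-linked TG_PS19 nuclei, Slc1a3 (−1.24) and Nrg1 (−0.13) turned against PS19. Xist also turned, against PS19 (−6.37) and against WT (−2.58). Those nuclei were chosen for having no Xist UMI, so the turn of Xist was fixed by the choice and is no result. A930009A15Rik (9 PS19 against 1 WT UMIs, 6.34-fold, exact interval 0.878 to 278) and Foxp2 (8 PS19 against 1 TG_PS19 UMIs, 5.22-fold, 0.699 to 231) lay the other way in identity-gene nuclei, where neither was tested. Foxp2 was also called higher in TG_PS19 than in WT over all members, and lay the other way in identity-gene nuclei (5 WT against 1 TG_PS19 UMIs, 4.63-fold, 0.518 to 219). Leaving out a PS19 library leaves no residual degree of freedom, so gene values without it have no test; the 16 genes named for PS19 against WT and the 17 for TG_PS19 against PS19 kept their direction without either. No paired analysis was possible because WT and TG_PS19 carry no replicate numbers.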

Other observations

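Gene levels not described above are given as values, chosen after they were seen. Reln, which encodes the matrix protein reelin, was at 242 CPM in WT, 276 and 688 CPM in the PS19 pair and 466 CPM in TG_PS19, with 106 of the 142 WT UMIs in 1 nucleus. The transcription factor gene Npas1 was at 23.8, 58.3, 89.8 and 26.1 CPM, with the PS19 pair above both lone libraries, and was not called (adjusted p 0.076 for PS19 against WT by edgeR). Tll1, a metalloprotease gene, was at 153, 101, 19.96 and 21.5 CPM over all members and at 208, 110, 14.2 and 26.1 CPM in identity-gene nuclei. Gpc5, a glypican gene, was at 55.5, 8.45, 187 and 508 CPM in identity-gene nuclei. The 9 members in neither class included 7 TG_PS19 nuclei, all of which had Xist and no Y-linked UMI.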
